A study of Mus musculus with 8 samples.

Results

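Genomic imprinting silences 1 parental copy of a gene, so that transcripts come mainly from the maternal or mainly from the paternal chromosome. Imprinted genes lie in clusters, and each cluster is governed by an imprinting control region that carries DNA methylation from only one parent. Many paternally expressed genes promote fetal growth and many maternally expressed genes restrain it. In the germ line these marks are erased in the fetus and later laid down anew according to sex, while the somatic cells of the gonad keep them. The 44 imprinted genes described here were listed by symbol. All 44 are among the 25239 symbols in the count files, and 41 of them passed the filter on low counts and were tested. By the textbook assignment for the mouse, 19 of the 44 are expressed from the maternal allele and 24 from the paternal allele, and *Gnas* gives transcripts of both kinds. The counts are summed over both alleles and the mice share a C57BL/6 background, so no value here tells one parental copy from the other.

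The libraries came from E14.5 fetal ovaries, 4 from control embryos (*Bmpr1a* fl/fl) and 4 from *Bmpr1a*-cKO embryos (*Bmpr1a* fl/fl; Oct4-Cre Cre/WT). Each library pooled 2 ovary pairs. In the cKO, a tamoxifen-inducible Cre driven by *Oct4* removes the BMP receptor gene *Bmpr1a* from germ cells, and the somatic cells of the ovary keep it. The dams of both genotypes received 4-hydroxytamoxifen and progesterone on successive days from 9.5 to 11.5 dpc, so the controls share that exposure but carry no Cre. The litter of each library is not labelled.

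Libraries held 8562961 to 15365052 counts. *Bmpr1a* itself had 199 to 237 CPM (counts scaled to a common library size) in control and 185 to 209 CPM in mutant libraries. Its Log2FC (log2 of *Bmpr1a*-cKO over control) was -0.16 (FDR = 0.0692, edgeR quasi-likelihood test), which does not check the labels, since the counts cover the whole gene in all cells of the ovary. All 8 germ cell markers and all 8 pregranulosa markers on the lists used were detected. The summed germ cell markers ran from 687 to 934 CPM in control and from 734 to 1113 CPM in mutant libraries, with 2 markers higher, 2 lower and 4 not past the test. *Dazl* alone went from a mean of 327 CPM in control to 506 CPM in mutant libraries, while the mean of the sum went from 778 to 953 CPM. Of the pregranulosa markers 7 of 8 fell, and their sum went from 1334 to 1603 CPM in control to 1129 to 1347 CPM in mutant libraries. No stromal marker passed the test (0 of 7 tested), and the sum was 3401 to 4408 CPM in control and 3292 to 4117 CPM in mutant libraries. Both hepatocyte markers tested rose, and the sum of that list was 0.749 to 3.54 CPM in control and 4.03 to 32.2 CPM in mutant libraries. Of the macrophage markers 2 of 5 tested rose, and 1 of 4 steroidogenic markers (*Hsd3b1*) and 1 of 5 Sertoli cell markers fell. The sums of these lists went from 27.5 to 36.2 CPM in control to 34.7 to 44.2 CPM in mutants for macrophages, from 42.2 to 48.4 CPM to 25.0 to 43.6 CPM for steroidogenic cells and from 16.9 to 17.9 CPM to 13.2 to 14.1 CPM for Sertoli cells, the last without overlap. No endothelial (0 of 6), mesonephric (0 of 4) or erythroid (0 of 2) marker tested passed, and 4 of the 6 erythroid markers were listed at 0 in all libraries. The part of these shifts in the values of imprinted genes was not tested, and in whole ovaries fewer cells of a type cannot be told apart from less RNA per cell.

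Among the imprinted genes tested, the maternally expressed neighbours *Phlda2* and *Slc22a18* on chromosome 7 had the most negative Log2FC, falling to 8.83 from 25.7 CPM and to 1.92 from 4.83 CPM. Of the 41 imprinted genes tested, 6 rose and 6 fell at an FDR below 0.05 (edgeR quasi-likelihood test, adjusted over all 14249 genes tested), and 29 did not pass, with a Log2FC of -0.29 to 0.23. Rising members were 14.6% of those tested, beside 17.3% of all genes. Falling members were 14.6%, beside 12.5% of all genes. Neither share stands far from that of all genes. With the added threshold of an absolute Log2FC over 0.5 (a DEG), 1 member was upregulated (2.44%, beside 6.11% of all genes) and 2 were downregulated (4.88%, beside 4.06%). All 4 mutant libraries lay above all 4 controls in 1 member (2.44%, beside 16.1% of all genes) and below them in 5 (12.2%, beside 11.7%). The median Log2FC of the members was -0.07 and that of all genes was -0.0042. Scaling the libraries to pregranulosa and stromal markers moved the median of all genes to 0.21 and gave 12 members higher and 2 lower. Scaling to germ cell markers left 1 higher and 2 lower. DEGs over all genes numbered 2327 and 1235 under these scalings, against 1449 by TMM scaling.

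Split by the textbook allele, 3 of the 19 maternally expressed members rose, 4 fell and 12 did not pass. Of the 21 paternally expressed members tested, 3 rose, 1 fell and 17 did not pass. Over all genes tested, 17.3% rose and 12.5% fell, and a difference between the alleles was not tested. All 3 member DEGs, *Phlda2*, *Slc22a18* and *Ascl2*, belong to the *Kcnq1ot1* cluster and are assigned to the maternal allele. The Log2FC of paternally expressed members stayed between -0.29 and 0.46, and that of maternally expressed members ran from -1.54 to 1.00. The median was -0.05 for the maternally and -0.07 for the paternally expressed members.

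**Figure D1:**
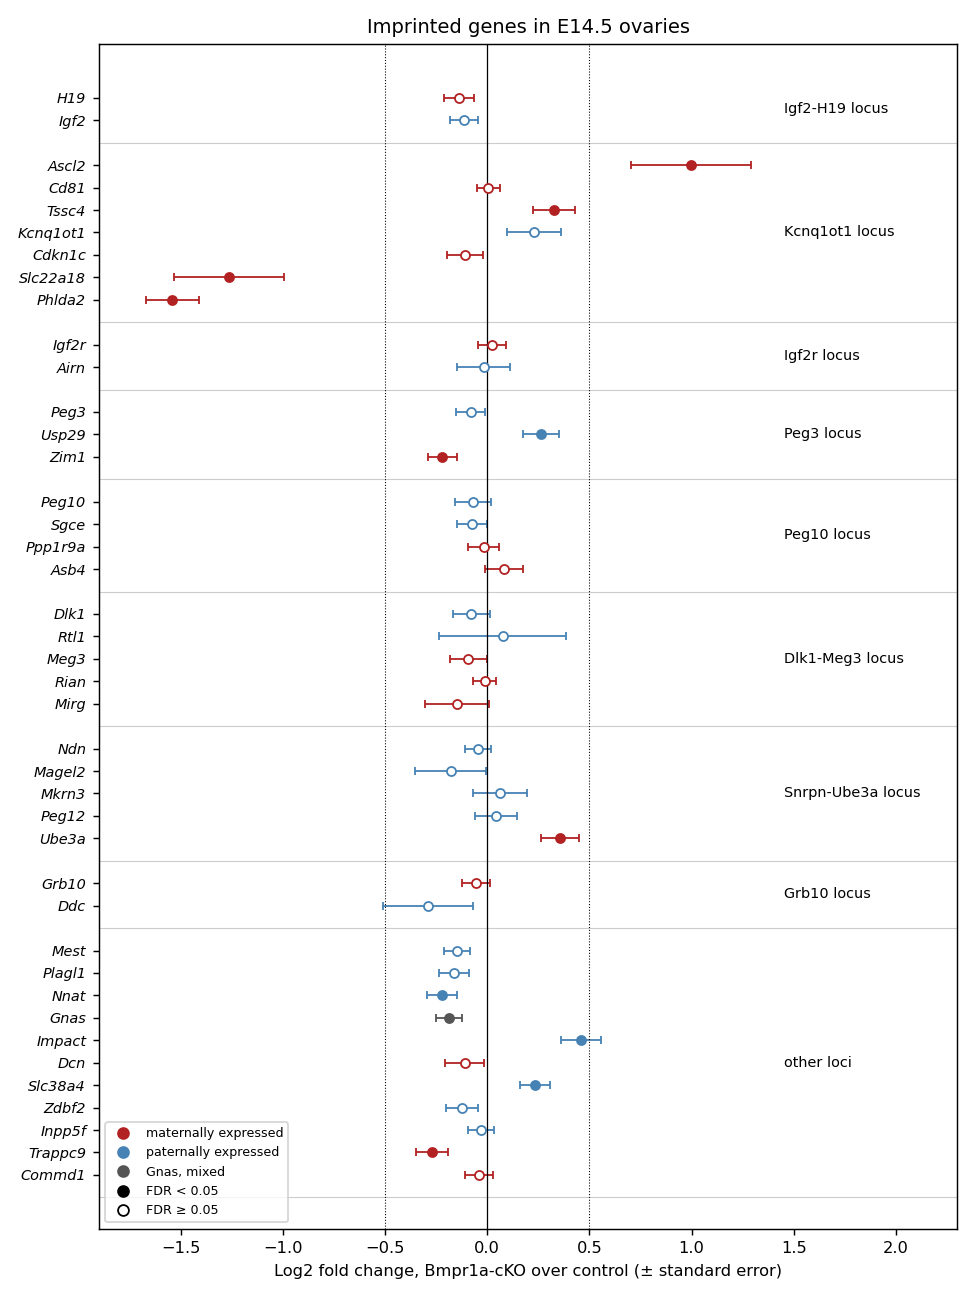
Log2FC of the 41 imprinted genes tested (horizontal axis, *Bmpr1a*-cKO over control, bars show the standard error), grouped by cluster, with red for maternally expressed, blue for paternally expressed and grey for *Gnas*. Filled points have an FDR below 0.05 and dotted lines mark a Log2FC of 0.5 in either direction, past which lie *Phlda2* (-1.54), *Slc22a18* (-1.26) and *Ascl2* (1.00).

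The *Kcnq1ot1* cluster was the only cluster with member DEGs, in both directions. *Kcnq1ot1* is a long non-coding RNA made from the paternal chromosome, where it silences its neighbours on both sides. The textbook assignment gives *Ascl2*, *Cd81*, *Tssc4*, *Cdkn1c*, *Slc22a18* and *Phlda2* to the maternal chromosome, and it is not specific to the fetal ovary. These counts cannot show whether each of them is imprinted in the fetal ovary. *Phlda2* encodes a small pleckstrin homology domain protein known for restraining growth of the placenta. It lies on chromosome 7 from 143501545 to 143503150 in mm10, on the minus strand, with its start 207 kb from that of *Kcnq1ot1*. Its level was 27.1, 24.3, 31.4 and 20.0 CPM in control libraries and 9.54, 8.33, 9.0 and 8.46 CPM in mutant libraries. The 4 mutant libraries lay close together, all far below the lowest control. The mean fell from 25.7 ± 4.78 to 8.83 ± 0.553 CPM (SD, n = 4 each), 2.91-fold lower, with a Log2FC of -1.54 (standard error 0.130, FDR = 8.98e-07 by edgeR). No other imprinted gene tested had a change as large.

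*Slc22a18* encodes an organic cation transporter-like membrane protein and lies next to *Phlda2*, from 143473736 to 143499334 on the plus strand, with its start 177 kb from that of *Kcnq1ot1*. It was a rarer transcript, with 57, 55, 70 and 51 counts in control libraries and 7, 27, 24 and 34 counts in mutant libraries. As CPM these were 4.69, 4.87, 6.56 and 3.22 in control and 0.835, 2.01, 2.51 and 2.32 in *Bmpr1a*-cKO ovaries. Mutant library 1 was the lowest, and no mutant library reached the lowest control. The mean fell from 4.83 ± 1.37 to 1.92 ± 0.752 CPM (SD, n = 4 each), with a Log2FC of -1.26 (standard error 0.271, FDR = 0.00255 by edgeR). The calls of *Phlda2* and *Slc22a18* held in each of 18 alternatives, with a Log2FC of -1.66 to -1.33 and of -1.44 to -1.04, respectively.

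*Cdkn1c*, the cyclin-dependent kinase inhibitor p57, lies closer to *Kcnq1ot1* than both, with its start at 165 kb, and did not share their change. Its level was 538, 508, 453 and 486 CPM in control and 559, 438, 422 and 421 CPM in mutant libraries, and mutant library 1 was above every control. The Log2FC was -0.11 (standard error 0.0874, FDR = 0.379 by edgeR), and its 95% interval reached from -0.28 to 0.06. Without *Bmpr1a*-cKO library 1 it was -0.22 with an FDR of 0.0154, so that this library decided the call. *Kcnq1ot1* had 275, 255, 203 and 305 CPM in control and 331, 334, 335 and 219 CPM in mutant libraries. Mutant libraries 1 to 3 stood above every control, and mutant library 4 was lower than all controls but library 3. Its Log2FC was 0.23 (standard error 0.130, FDR = 0.209 by edgeR), and without *Bmpr1a*-cKO library 4 it was 0.35 with an FDR of 0.0191. The transcript covers 93092 bases of annotated exon, most of it within an intron of *Kcnq1* on the other strand. The library kit keeps the strand of each RNA, but whether the counting used strand is not given in the sources used here.

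*Ascl2*, a basic helix-loop-helix factor of the placenta and intestinal stem cells, sits at the other end of the cluster, with its start 327 kb from that of *Kcnq1ot1*. It was near the limit of detection, with 16, 11, 23 and 11 counts in control and 17, 30, 25 and 43 counts in mutant libraries. As CPM, controls had 1.32, 0.974, 2.15 and 0.694 and mutants 2.03, 2.23, 2.62 and 2.93. Control library 3 was higher than mutant library 1, so the genotypes overlapped. *Ascl2* rose with a Log2FC of 1.00 (standard error 0.294, FDR = 0.0187 by edgeR). Without control library 4 the Log2FC was 0.74 (FDR = 0.0755), and without *Bmpr1a*-cKO library 4 it was 0.88 (FDR = 0.0690).

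*Tssc4*, which encodes a factor of spliceosome recycling, rose from 22.4, 19.3, 15.7 and 17.6 CPM in control to 23.7, 25.7, 21.6 and 22.9 CPM in mutant libraries. Only control library 1 reached the range of the mutants. The Log2FC was 0.33 (standard error 0.104, FDR = 0.0273 by edgeR). Without control library 3 or 4 or *Bmpr1a*-cKO library 2 or 4 the FDR of *Tssc4* was 0.0508 to 0.101, and its exons overlap by 11.9% with those of *Trpm5* on the other strand. *Cd81*, a tetraspanin of the cell surface, had 213, 224, 199 and 218 CPM in control and 222, 207, 212 and 217 CPM in mutant libraries. Its Log2FC was 0.01 (FDR = 0.947 by edgeR), with a sign that changed to -0.0044 under DESeq2 size factors and to -0.05 under scaling by library size alone.

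*Kcnq1*, the potassium channel gene that hosts *Kcnq1ot1*, is imprinted in early embryos and was not on the member list. It fell, from 19.3, 16.6, 20.3 and 20.3 CPM in control to 13.5, 12.4, 11.8 and 12.2 CPM in mutant libraries, with no overlap. The Log2FC was -0.62 (standard error 0.0958, FDR = 0.000198 by edgeR). Within 600 kb of the *Kcnq1ot1* start on either side, 18 genes were tested, 7 of them members. Of the 18, 3 rose (*Ascl2*, *Tssc4* and *Dhcr7*) and 4 fell (*Phlda2*, *Slc22a18*, *Kcnq1* and *Trpm5*), which is 16.7% beside 17.3% of all genes and 22.2% beside 12.5%. The window was drawn around the cluster that holds all 3 member DEGs, and 2 of its 4 fallers are among them. These shares are a description and not a test. *Dhcr7*, which encodes the last enzyme of cholesterol synthesis, and the channel gene *Trpm5* are named after their values were seen, with a Log2FC of 0.45 (FDR = 0.00282 by edgeR) and -0.31 (FDR = 0.0272). *Nap1l4*, the next gene tested beyond *Phlda2* at 253 kb, had a Log2FC of 0.07 (FDR = 0.333 by edgeR).

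**Figure D2:**
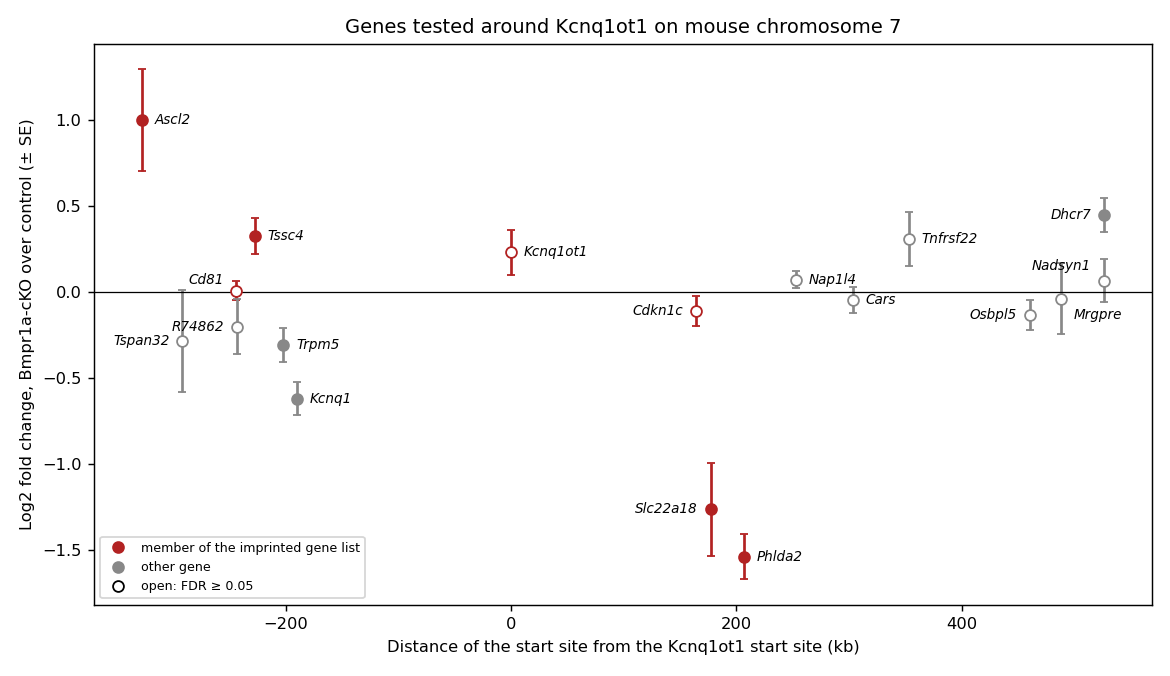
Log2FC (vertical axis, *Bmpr1a*-cKO over control, bars show the standard error) of the 18 genes tested within 600 kb of the *Kcnq1ot1* start, against the distance between start sites in kb. Members are red, other genes grey, and open points have an FDR of 0.05 or more. *Slc22a18* at 177 kb and *Phlda2* at 207 kb lie far below their neighbours *Cdkn1c* at 165 kb and *Nap1l4* at 253 kb.

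Ratios within a library do not depend on how libraries are scaled, and 4 were computed for this cluster after its values had been seen. On the log2 scale the count ratio of *Phlda2* to *Cdkn1c* was -4.31, -4.38, -3.85 and -4.60 in control and -5.86, -5.71, -5.54 and -5.63 in mutant libraries, a difference of -1.40. The ratio of *Slc22a18* to *Cdkn1c* differed by -1.26 and that of *Kcnq1* to *Kcnq1ot1* by -0.84. The ratio of *Phlda2* to *Slc22a18* was 2.42 ± 0.176 in control and 2.28 ± 0.767 in mutant libraries (SD, n = 4 each). These pairs set genes already seen to fall against genes that had not, or against each other. A permutation test run on pairs chosen in this way carries no weight, so the ratios are given as a description without p-values.

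The 250 bases before the RefSeq start of the 3 member DEGs are shown because these genes share a cluster but moved in opposite directions. The sequences are from the RefSeq table of GRCm38.p6, each written 5′ to 3′ on the strand of its gene. Capitals mark GGCGCC, a GC-rich element known to be bound by SMAD proteins, the transcription factors downstream of BMP receptors. It reads the same on both strands. This element was chosen after the values had been seen.
*Phlda2*, chr7:143502525-143502774, minus strand: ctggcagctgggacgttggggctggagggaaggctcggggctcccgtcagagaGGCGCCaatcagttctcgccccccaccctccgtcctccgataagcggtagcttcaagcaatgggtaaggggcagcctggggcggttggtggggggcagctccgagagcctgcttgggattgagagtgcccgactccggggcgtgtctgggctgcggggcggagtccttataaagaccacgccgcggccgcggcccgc
*Slc22a18*, chr7:143473539-143473788, plus strand: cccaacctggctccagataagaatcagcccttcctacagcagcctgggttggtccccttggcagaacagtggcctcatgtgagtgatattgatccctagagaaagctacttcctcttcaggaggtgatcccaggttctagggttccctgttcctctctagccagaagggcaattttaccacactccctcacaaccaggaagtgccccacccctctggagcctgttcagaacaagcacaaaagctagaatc
*Ascl2*, chr7:142969265-142969514, minus strand: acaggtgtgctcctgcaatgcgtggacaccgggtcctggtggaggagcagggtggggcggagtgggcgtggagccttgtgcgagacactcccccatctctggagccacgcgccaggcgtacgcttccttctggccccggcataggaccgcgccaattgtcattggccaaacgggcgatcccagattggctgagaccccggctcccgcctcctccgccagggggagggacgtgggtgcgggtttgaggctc
The RefSeq starts of *Phlda2* and *Slc22a18* differ from the GENCODE positions given for these genes above. By those positions the *Phlda2* stretch lies wholly inside the gene, and that of *Slc22a18* runs past the start. The *Phlda2* stretch held the element once, beginning 197 bases before the RefSeq start, and 21 CpG dinucleotides. The *Ascl2* stretch held 19 CpGs and no such element, and that of *Slc22a18* held neither. The hexamer TGCCGC, which in methylated form is bound by the imprint protector ZFP57, was on neither strand of these 3 stretches.

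Over windows of 300 bases, which add the 50 bases after each start, the RefSeq table held 56 promoters of 36 members. TGCCGC was found on either strand in 12 of these promoters (21.4%), beside 11.6% of the 32851 promoters in the table. Counted by gene, 11 of 36 members (30.6%) and 13.1% of 27025 genes had it in at least 1 promoter, and members averaged more promoters per gene. GGCGCC was found in 10 member promoters (17.9%), beside 11.9% of all promoters, and by gene in 9 of 36 members (25.0%), beside 13.4%. The 2 hexamers cannot overlap each other. Windows that share bases are counted separately in the shares by promoter: 2 windows of *Mest* start 3 bases apart and hold the same matches of both hexamers, 2 of *Gnas* start 19 bases apart and hold none, and those of *Peg3* and *Usp29*, on opposite strands, share 263 bases. Member promoters had a median of 13.5 CpGs and all promoters a median of 7. A match is a description of the letters and not of binding.

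**Figure D3:**
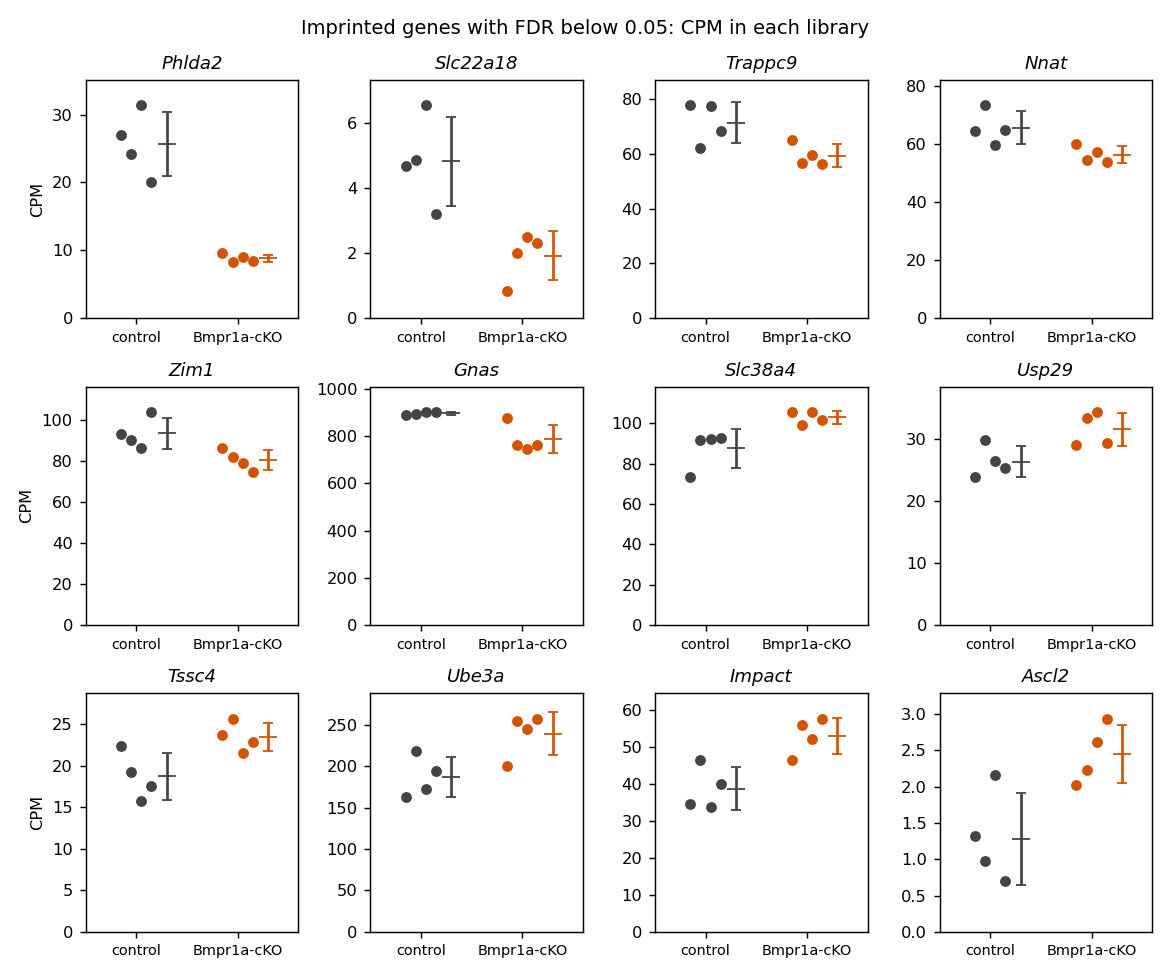
CPM in each library (vertical axes start at 0) of the 12 imprinted genes with an FDR below 0.05, from the lowest Log2FC (*Phlda2*) to the highest (*Ascl2*). Points are libraries and bars show the mean ± SD of 4 libraries; *Phlda2*, *Slc22a18*, *Zim1*, *Gnas* and *Slc38a4* show no overlap between genotypes.

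*H19* and *Igf2* had the highest levels of all members. *Igf2* encodes the fetal growth factor IGF2 and is expressed from the paternal allele, while *H19* is a maternally expressed non-coding RNA that shares its enhancers. *H19* had 2667, 3098, 2389 and 2748 CPM in control and 2491, 2517, 2419 and 2471 CPM in mutant libraries. The mutants were close together and within the range of the controls (Log2FC -0.14, standard error 0.0740, FDR = 0.177 by edgeR). Without control library 3 the Log2FC of *H19* was -0.20 with an FDR of 0.0467. *Igf2* had 1851, 2080.0, 1749 and 2015 CPM in control and 1889, 1772, 1719.6 and 1738 CPM in mutant libraries (Log2FC -0.11, standard error 0.0678, FDR = 0.237 by edgeR). Members together took 1.11% to 1.31% of the counts in control and 1.07% to 1.18% in mutant libraries (two-sided exact permutation test, p = 0.114).

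IGF2 is cleared by the receptor encoded by *Igf2r*, whose paternal copy is silenced by the non-coding RNA *Airn*. *Igf2r* had 342, 340.5, 331 and 371 CPM in control and 373, 366, 363 and 307 CPM in mutant libraries, with mutant library 4 the lowest of the 8 (Log2FC 0.02, 95% interval -0.11 to 0.16). *Airn* had 13, 12.0, 11.2 and 15.2 CPM in control and 15.4, 12.5, 13.4 and 10.6 CPM in mutant libraries (Log2FC -0.02, 95% interval -0.27 to 0.23). Neither passed the test (FDR = 0.827 and 0.934 by edgeR). *Grb10*, an adaptor that restrains insulin and IGF signalling, had 372, 418, 344 and 403 CPM in control and 399, 367, 364 and 351 CPM in mutant libraries (Log2FC -0.05, FDR = 0.594 by edgeR). Its neighbour *Ddc*, the aromatic amino acid decarboxylase, was at 3.19 ± 0.854 and 2.61 ± 0.361 CPM (SD, n = 4 each; FDR = 0.352 by edgeR).

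At the *Peg3* cluster the members went different ways by small amounts. *Peg3*, a paternally expressed zinc finger gene, had 1540.4, 1500.5, 1472 and 1621 CPM in control and 1629, 1453, 1422 and 1297 CPM in mutant libraries (Log2FC -0.08, FDR = 0.430 by edgeR). *Usp29*, a paternally expressed gene of the ubiquitin protease family that starts beside *Peg3* on the other strand, rose from 23.8, 29.8, 26.4 and 25.3 CPM to 29.1, 33.3, 34.3 and 29.4 CPM. Control library 2 lay within the range of the mutants, and the Log2FC was 0.26 (standard error 0.0869, FDR = 0.0327 by edgeR). *Zim1*, a maternally expressed zinc finger gene, fell from 93.2, 89.9, 86.4 and 104 CPM to 86.1, 82.0, 78.7 and 74.7 CPM. Its highest mutant library was just below its lowest control, and the Log2FC was -0.22 (standard error 0.0695, FDR = 0.0272 by edgeR). *Usp29* lost its call without each of control libraries 1, 3 and 4 and mutant libraries 2 and 3 (FDR = 0.0614 to 0.106), and *Zim1* without control libraries 1 and 4 and mutant libraries 2, 3 and 4 (FDR = 0.0565 to 0.0905). Scaled to pregranulosa and stromal markers, the Log2FC of *Zim1* was -0.00044 (FDR = 0.997 by edgeR), under a shift of 0.21 for all genes. Exons of *Usp29* overlap by 14.3% with those of *Zim3* on the other strand.

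At the *Peg10* cluster no member passed the test. *Peg10*, a retrotransposon-derived gene needed in the placenta, had 790.1, 865, 682 and 907 CPM in control and 849.6, 811, 699 and 732 CPM in mutant libraries (Log2FC -0.07, FDR = 0.592 by edgeR). The maternally expressed *Asb4*, a subunit of a ubiquitin ligase, had 19.5, 23.5, 17.4 and 20.8 CPM in control and 22.3, 21.2, 22.1 and 20.6 CPM in mutant libraries (Log2FC 0.08, FDR = 0.561 by edgeR). *Sgce*, which encodes epsilon-sarcoglycan, had a mean of 37.9 ± 2.03 and 36.1 ± 2.46 CPM, and *Ppp1r9a*, the gene of neurabin, 99.8 ± 10.2 and 98.9 ± 5.48 CPM (SD, n = 4 each). In this cluster the genotypes overlapped for every member.

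No member of the *Dlk1-Meg3* cluster passed either. *Dlk1*, a paternally expressed transmembrane protein related to Notch ligands, had 225, 177, 212 and 228 CPM in control and 230.3, 175, 209 and 186 CPM in mutant libraries. *Meg3*, a maternally expressed non-coding RNA, had 133, 129, 129 and 165 CPM in control and 148, 129, 134 and 114 CPM in mutant libraries. Both overlapped between genotypes, with a Log2FC of -0.08 for *Dlk1* (FDR = 0.569 by edgeR) and of -0.09 for *Meg3* (FDR = 0.482). The non-coding RNAs *Rian* and *Mirg*, which host small RNAs, were at 172 ± 8.66 and 5.61 ± 0.460 CPM in control and at 171 ± 5.07 and 5.03 ± 0.943 CPM in the mutants (SD, n = 4 each). *Rtl1*, a retrotransposon-derived coding gene, was barely detected at 8 to 17 counts per library, and its Log2FC of 0.08 had a 95% interval from -0.53 to 0.69.

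At the *Snrpn-Ube3a* cluster only *Ube3a*, the E3 ubiquitin ligase gene of Angelman syndrome, passed the test. *Ube3a* rose from 163, 218, 172 and 194 CPM in control to 200.4, 254, 245 and 257 CPM in mutant libraries, and only control library 2 was above the lowest mutant. The Log2FC was 0.36 (standard error 0.0926, FDR = 0.00904 by edgeR). Its maternal bias is known from neurons, and other tissues use both copies. Of its exons 8.7% overlap with *Snhg14* on the other strand, the non-coding RNA that silences the paternal *Ube3a* in neurons. *Snhg14* rose too, from 7.92 ± 1.31 to 11.1 ± 1.99 CPM (SD, n = 4 each; Log2FC 0.51, FDR = 0.0168 by edgeR). The paternally expressed genes *Ndn*, *Magel2*, *Mkrn3* and *Peg12* had a Log2FC of -0.05, -0.18, 0.06 and 0.04, none past the test.

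*Snrpn*, a core gene of the same cluster, had 1, 3, 1 and 2 counts in control and 1, 3, 3 and 5 counts in mutant libraries and was not tested. *Snurf*, which shares the *Snrpn* transcript, was listed at 0 in all 8 libraries. *Nap1l5* had 2, 2, 3 and 2 counts in control and 6, 3, 1 and 5 counts in mutant libraries, and *Rasgrf1* had 2, 0, 2 and 6 counts in control and 1, 0, 0 and 1 counts in mutant libraries. Where a library had no count, up to 3 counts remain possible, which for *Rasgrf1* is 0.266 CPM in control library 2, 0.223 CPM in *Bmpr1a*-cKO library 2 and 0.314 CPM in *Bmpr1a*-cKO library 3, for counting error only. *Snrpn* and *Snurf* have exons that overlap on the same strand, and how reads shared by both were counted is not given in the sources used here, so their low counts need not show low expression. For *Nap1l5* and *Rasgrf1* no difference was detectable at this depth.

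Among the members that stand alone or in small loci, 2 rose, 3 fell and 6 did not pass, beside 17.3% higher and 12.5% lower of all genes. *Impact*, a paternally expressed regulator of the stress kinase GCN2, rose from 34.5, 46.5, 33.8 and 39.9 CPM in control to 46.4, 55.9, 52.0 and 57.6 CPM in mutant libraries. Control library 2 was level with mutant library 1, and the Log2FC was 0.46 (standard error 0.0987, FDR = 0.00266 by edgeR). *Slc38a4*, a paternally expressed amino acid transporter gene, rose from 73.3, 91.7, 92.3 and 92.6 CPM to 106, 99.0, 106 and 101 CPM, with no overlap (Log2FC 0.23, standard error 0.0740, FDR = 0.0275 by edgeR). Without control library 1 or *Bmpr1a*-cKO library 3 or 4 the FDR of *Slc38a4* was 0.0562 to 0.0816.

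*Trappc9*, a maternally biased gene of vesicle transport, fell from 77.8, 62.2, 77.5 and 68.4 CPM to 65.2, 56.6, 59.5 and 56.4 CPM, and mutant library 1 lay among the controls (Log2FC -0.27, standard error 0.0800, FDR = 0.0192 by edgeR). *Nnat*, a paternally expressed membrane proteolipid gene, fell from 64.7, 73.4, 59.6 and 64.9 CPM to 60.2, 54.5, 57.3 and 53.7 CPM, again with mutant library 1 among the controls (Log2FC -0.22, standard error 0.0724, FDR = 0.0306 by edgeR). *Gnas*, the gene of the stimulatory G protein alpha subunit, makes further transcripts from each parental allele that are counted as 1 gene here. It fell from 891, 892, 902 and 900.0 CPM to 878, 762, 747 and 763 CPM, and mutant library 1 was just below the controls (Log2FC -0.19, standard error 0.0625, FDR = 0.0346 by edgeR). These 3 calls were lost without 4 to 6 single libraries each, with an FDR of 0.0521 to 0.0706 for *Trappc9*, 0.0510 to 0.0968 for *Nnat* and 0.0573 to 0.113 for *Gnas*. Scaled to pregranulosa and stromal markers, the Log2FC was -0.06 for *Trappc9*, -0.0054 for *Nnat* and 0.02 for *Gnas*, under a shift of 0.21 for all genes.

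*Mest*, a paternally expressed hydrolase-like gene, had 603, 718, 593 and 639 CPM in control and 576, 576, 581 and 572 CPM in mutant libraries. Every mutant library was below every control, but the Log2FC of -0.15 did not pass the test (standard error 0.0650, FDR = 0.102 by edgeR). Its exons overlap by 23.1% with *Copg2* on the other strand. *Plagl1*, a growth-restraining zinc finger gene, averaged 148 ± 15.3 CPM in controls and 132 ± 6.80 CPM in mutants (SD, n = 4 each; Log2FC -0.16, FDR = 0.106 by edgeR). *Dcn*, the gene of the matrix proteoglycan decorin, *Zdbf2*, *Inpp5f* and *Commd1* had a Log2FC of -0.11, -0.12, -0.03 and -0.04, with overlapping libraries.

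Per kb of annotated exon, *H19* stood at the top of the members with 1108 CPM per kb in control and 1006 in *Bmpr1a*-cKO ovaries. *Igf2* followed with 336 and 311, *Cdkn1c* with 243 and 226, *Mest* with 162 and 146, *Peg10* with 122 and 116 and *Peg3* with 115 and 109 CPM per kb. *Peg10* and *Peg3* did not differ beyond the spread between libraries. *Phlda2* went from 22.9 to 7.88 CPM per kb, a level that in control was close to those of *Ndn* (23.8) and *Slc38a4* (20.5). *Rtl1* was the lowest member tested, at 0.174 CPM per kb in control.

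**Figure D4:**
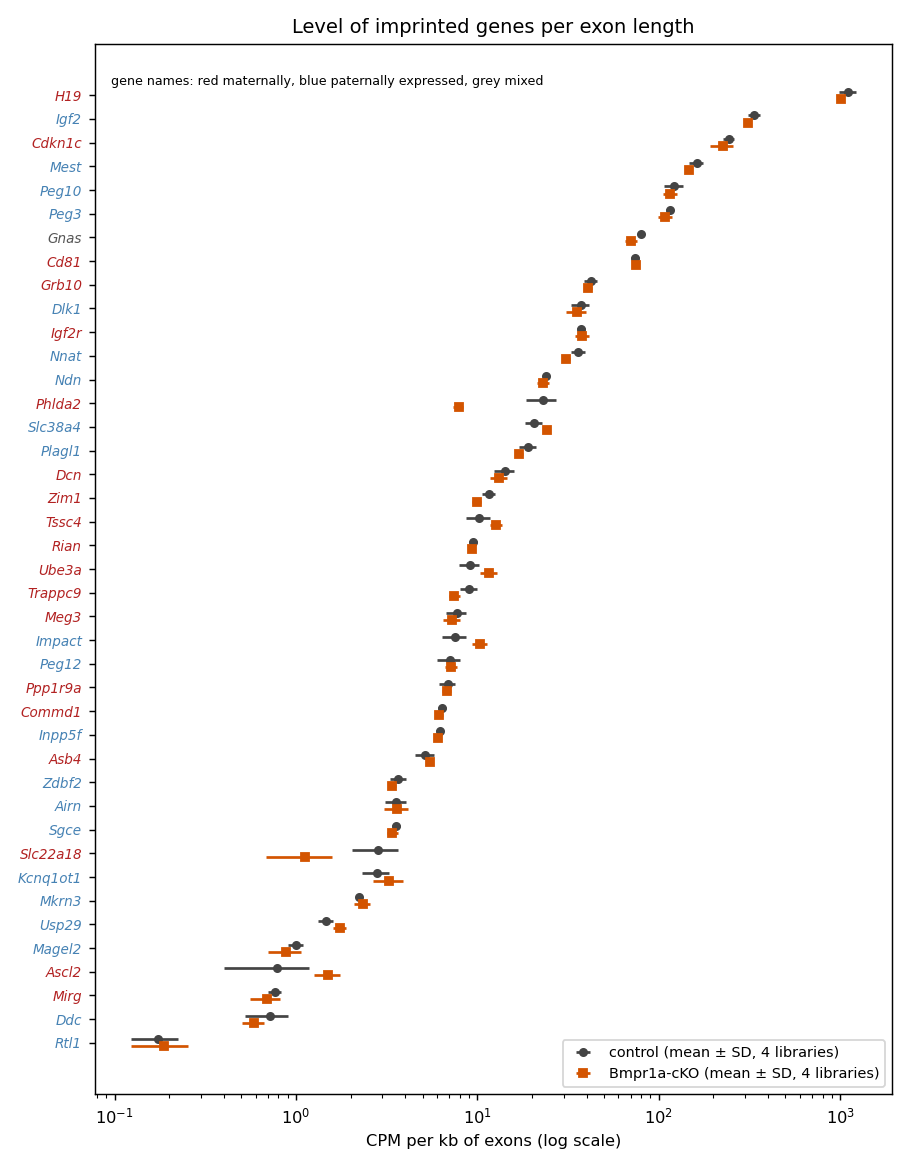
Level of the 41 imprinted genes tested in CPM per kb of exon (log axis), with mean ± SD of 4 control (grey circles) and 4 mutant libraries (orange squares), ordered by the control level. Symbols of most genes lie side by side, from *H19* (1108 in control) to *Rtl1* (0.174), and those of *Phlda2*, *Slc22a18* and *Ascl2* are apart.

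In all, 6 ratios of a maternally to a paternally expressed partner of the same locus were compared within libraries. The log2 count ratio of *H19* to *Igf2* was 0.527, 0.575, 0.450 and 0.448 in control and 0.399, 0.506, 0.492 and 0.507 in mutant libraries, a difference of -0.02 (two-sided exact permutation test, p = 0.571, 0.857 adjusted over the 6 ratios). That of *Cdkn1c* to *Kcnq1ot1* was 0.969, 0.992, 1.16 and 0.673 in control and 0.756, 0.392, 0.333 and 0.940 in mutant libraries, a difference of -0.34 (p = 0.143, 0.286 adjusted, exact permutation test). That of *Zim1* to *Peg3* was lower in all 4 mutant than in all 4 control libraries, by -0.13 on average (p = 0.0286, the smallest possible, 0.171 adjusted, exact permutation test). The ratios of *Igf2r* to *Airn*, *Meg3* to *Dlk1* and *Asb4* to *Peg10* differed by 0.02, -0.0093 and 0.16 (p = 0.83, 1 and 0.114, exact permutation test). No ratio passed the adjusted threshold. A lone ratio at the smallest possible p adjusts to 0.171 over the 6 ratios, so it could not have passed, and no conclusion is drawn from this.

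**Figure D5:**
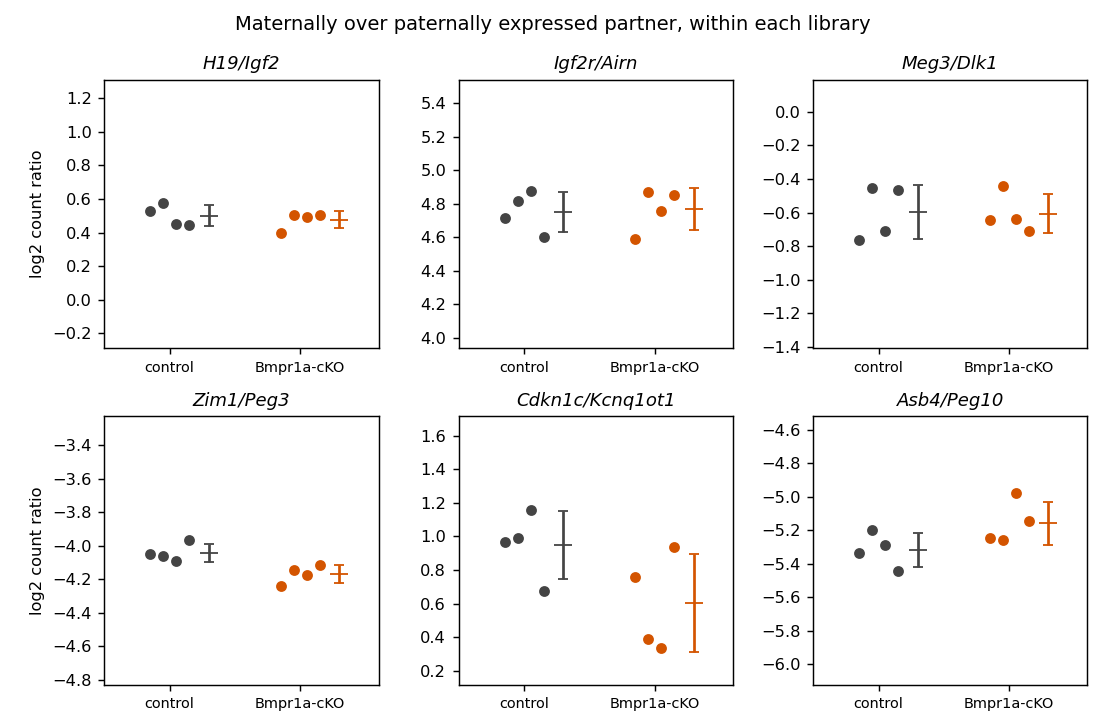
Log2 ratio of the counts of a maternally over a paternally expressed partner in each library (points), with mean ± SD of 4 libraries, for 6 loci on vertical axes of equal span. Control and mutant libraries overlap in each panel but that of *Zim1* over *Peg3*, where the mean difference was -0.13.

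Genes that set, keep or erase imprints were taken as a list of their own. The list held 24 methyltransferases, TET enzymes, control region binders and chromatin factors, and 21 were tested. Of these, 8 rose (38.1%, beside 17.3% of all genes) and 1 fell (4.76%, beside 12.5%). The list was chosen with earlier results of these data known, so these shares are a description and not a test. *Dppa3*, which protects methylation in the early embryo and is a germ cell gene, had the largest Log2FC of the list at 1.58 (27.6 ± 9.26 to 81.3 ± 21.5 CPM, FDR = 5.99e-05 by edgeR). *Tet1*, the dioxygenase that takes part in imprint erasure in germ cells, had 89.0, 103, 102 and 98.6 CPM in control and 170.3, 195, 190.3 and 166 CPM in mutant libraries (Log2FC 0.88). The chromatin factors *Arid4a* and *Smchd1* rose by a Log2FC of 1.10 and 0.73, and the de novo methyltransferase *Dnmt3b* by 0.63. *Trim28*, the corepressor that ZFP57 recruits, and the Polycomb genes *Eed* and *Ezh2* rose by 0.32, 0.31 and 0.29, while the H3K9 methyltransferase *Setdb1*, the partner of TRIM28, fell by 0.32 on the log2 scale. *Dnmt1*, *Uhrf1*, *Zfp57*, *Zfp445* and *Ctcf* were among the 12 that did not pass. With scaling to germ cell markers 5 of the list rose and 0 fell, and with scaling to pregranulosa and stromal markers 13 rose and 0 fell.

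Of 40 further genes reported as imprinted in some tissue or lying beside a member, 31 were tested, 5 rose (16.1%, beside 17.3% of all genes) and 4 fell (12.9%, beside 12.5%), shares near those of all genes. *Atp10a*, a phospholipid flippase gene near *Ube3a*, had the largest change (28.9 ± 5.91 to 55.5 ± 5.78 CPM, SD, n = 4 each; Log2FC 0.95, FDR = 2.35e-05 by edgeR). The homeobox gene *Rhox5*, *Snhg14*, *Jade1* and the Argonaute gene *Ago2* rose by a Log2FC of 0.72, 0.51, 0.41 and 0.31. *Cobl* near *Grb10*, *Kcnq1*, the survival gene *Bcl2l1* and the non-coding RNA *Peg13*, which lies within *Trappc9*, had a Log2FC of -0.63, -0.62, -0.22 and -0.20.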

How the data were processed

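RNA-Seq was made from E14.5 ovaries, with 4 control and 4 *Bmpr1a*-cKO libraries of 2 ovary pairs each. The authors trimmed the reads with Trimmomatic 0.39, aligned them to mm10 with STAR 2.5.2 and deposited raw counts per gene symbol and library. The annotation and the strand setting are not given in the sources used here. A table of the authors' normalized values (8 library columns) was not used.

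Counts were analysed in R 4.3.3 with edgeR 4.0.16: filterByExpr, TMM, and the two-sided quasi-likelihood test of genotype with Benjamini-Hochberg adjustment (FDR) over the genes tested. CPM are TMM-scaled, and values are mean ± SD. "Rose" and "fell" mean an FDR below 0.05, and a DEG also has an absolute Log2FC over 0.5. P-values measure the spread between these pooled libraries. Log2 ratios carried 0.5 added to each count. Gene positions, exon lengths and overlaps came from GENCODE vM21, which matched all 44 members, and promoters from RefSeq. The procedure was run on simulated counts with the same dispersion for all genes and changes balanced in direction. That run does not check the scaling where changes are not balanced. Alternatives were the likelihood ratio test, limma-voom (limma 3.58.1), DESeq2 1.42.0, other scalings and filters, the replicate block, and each library left out.

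The members and lists were chosen with earlier results of these data known. Values of every library are given for members past the FDR, for both partners of the 6 ratios, and for the 10 members with the highest level per exon length; others are given by means or ranges. Genes that are no member are named where they pass the FDR on 2 lists or where a result turns on them.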

Additional observations from a re-analysis of the deposited data

Results flagged for a closer look

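In 7 of 82 groups of 4 libraries (41 members, 2 genotypes), 1 library stood apart from the other 3 by more of the group's range than Dixon's 95% critical value, where chance flags about 1 in 20 groups. Among *Bmpr1a*-cKO libraries, library 4 was low for *Kcnq1ot1* (219 CPM, others 331 to 335, gap over range 0.963) and for *Igf2r* (307 CPM, others 363 to 373, 0.860). *Bmpr1a*-cKO library 1 was high for *Cdkn1c* (559 CPM, others 421 to 438, 0.875), *Ndn* (95.1 CPM, others 81.0 to 83.0, 0.860) and *Gnas* (878 CPM, others 747 to 763, 0.875). Among controls, library 4 was high for *Meg3* (165 CPM, others 129 to 133, 0.899) and library 1 was low for *Slc38a4* (73.3 CPM, others 91.7 to 92.6, 0.956). *Bmpr1a*-cKO library 1 also had the fewest counts (8562961). Within its genotype it had the highest marker sums for pregranulosa cells (1347 CPM), stroma (4117), endothelium (310), mesonephros (21.2), steroidogenic (43.6) and erythroid cells (57.3). Its sums for germ cells (734 CPM), macrophages (34.7) and Sertoli cells (13.2) were the lowest of its genotype. The part of the depth and of these sums in the values above was not tested.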

How the results depend on the processing

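*Phlda2* and *Slc22a18* passed the FDR in all 18 alternatives, *Ube3a* and *Impact* in all but scaling to germ cell markers (FDR = 0.242 and 0.0789), and *Ascl2* in 16. Under germ cell marker scaling the Log2FC was 0.35 for *Ube3a* and 0.44 for *Impact*, near the 0.36 and 0.46 by TMM. The standard errors were 0.169 and 0.168, against 0.0926 and 0.0987 by TMM. The likelihood ratio test, limma-voom, DESeq2, RLE scaling and both other filters left 12 members past the FDR. Low counts limit *Ascl2*, *Rtl1*, *Nap1l5* and *Rasgrf1*, and for *Snrpn* the counting of reads shared with *Snurf* is a further limit that was not tested. *Slc22a18* was low as well, with 7 to 34 counts in mutant libraries.

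Scaling to germ cell markers left 3 members past the FDR (3 maternally and 0 paternally expressed), 5 regulators of imprints and 4 of the other imprinted genes. Scaling to pregranulosa and stromal markers shifted the median of all genes to 0.21, gave 2327 DEGs (2043 up and 284 down, against 871 up and 578 down by TMM) and 6 member DEGs, and put the member median at 0.15. Under that shift the sign turned for *H19* (0.077), *Igf2* (0.10), *Cdkn1c* (0.097), *Airn* (0.21), *Peg3* (0.13), *Peg10* (0.15), *Sgce* (0.14), *Ppp1r9a* (0.20), *Dlk1* (0.14), *Meg3* (0.13), *Rian* (0.21), *Mirg* (0.073), *Ndn* (0.17), *Magel2* (0.041), *Grb10* (0.16), *Mest* (0.069), *Plagl1* (0.055), *Gnas* (0.023), *Dcn* (0.11), *Zdbf2* (0.099), *Inpp5f* (0.19) and *Commd1* (0.17). With library size alone 3 members rose and 8 fell, and *Cd81* (-0.047), *Igf2r* (-0.029) and *Peg12* (-0.011) turned. *Cd81* also turned under the DESeq2 test (-0.0047), RLE scaling (-0.0044) and no filter (-0.0032). Scaling to pregranulosa and stromal markers sets the mean log2 level of these lists about equal between libraries, and 7 of 8 pregranulosa markers had fallen by TMM. Why those markers fell, and the cause of the other sign changes, was not tested.

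With 1 library left out, 6 to 13 members passed the FDR (3 to 8 maternally, 1 to 4 paternally expressed), with 6 each without control library 4, *Bmpr1a*-cKO library 2 or library 4, and 7 without control library 1 or *Bmpr1a*-cKO library 3. The Log2FC ran from -0.032 to 0.023 for *Cd81*, -0.0040 to 0.080 for *Igf2r*, -0.10 to 0.073 for *Airn*, -0.088 to 0.028 for *Ppp1r9a*, -0.15 to 0.24 for *Rtl1*, -0.047 to 0.0094 for *Rian* and -0.019 to 0.13 for *Peg12*. The ratio differences ran from -0.041 to 0.0024 for *H19* to *Igf2*, -0.033 to 0.074 for *Igf2r* to *Airn* and -0.066 to 0.039 for *Meg3* to *Dlk1*.

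Libraries of the same number share only that number. Deviations of same-numbered libraries correlated across genes at 0.224, 0.184, 0.132 and -0.0867, and 2 of 4 controls correlated best with their own number. With the replicate block 13 members passed the FDR, *Plagl1* (0.0455) being added, and the 12 others kept their calls; for the 6 ratios the exact sign-flip test over 4 pairs cannot give a p below 0.125 and so could not pass the threshold.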
